A study of Livoneca redmanii with 3 samples.

Results

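Contigs annotated with the gene names EFTUD1, estA, NID2, PDZPH1P and SLC12A8 were examined in the RNA of Livoneca redmanii, an isopod crustacean that lives as a parasite on fish. A contig is a transcript sequence assembled from reads, and an assembled gene is a group of contigs that the assembler placed together. The names were matched exactly in the deposited count table, which gave 21 distinct contigs in 9 assembled genes, out of 31922 contigs of which 4320 carried a name. The 5 names were chosen because they had counts in the control and low-salinity libraries, unlike most named genes: of 2830 names in the table, 2363 had no count in either library. Their counts in these libraries, and their low level in the low-temperature library, are therefore given as a description.

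Whole animals were collected in Lake Qarun from the fish Tilapia zilli and compared after low-temperature stress, after low-salinity stress and under control conditions. The low-temperature animals were cooled from 26 °C to 10 °C, the low-salinity animals were moved in steps from 35 PSU to 8 PSU, and the control animals stayed at 35 PSU and 26 °C. The labels give neither the salinity of the cooled animals nor the temperature of the low-salinity animals. Each condition had 1 library and the labels do not give the number of animals in it, so the differences have no replicate check, no test was run, and every interval covers counting error only.

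As background, EFTUD1 (also called EFL1) is a cytosolic GTPase that helps to release the factor eIF6 from newly made large ribosomal subunits. estA is a name given to bacterial esterases, and its description here, GDSL-like lipase or acylhydrolase, is a family of serine hydrolases. NID2 is nidogen-2, a glycoprotein that links laminin and type IV collagen in basement membranes of mammals. PDZPH1P is the symbol of a human pseudogene named for PDZ and pleckstrin homology domains, and SLC12A8 belongs to the cation-chloride cotransporter family. Non-LTR retrotransposons are mobile elements that copy themselves through RNA with a reverse transcriptase. Many also encode an endonuclease or ribonuclease H, and in the CR1-like group of animals the first open reading frame can carry an esterase domain.

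The 3 libraries differed before any of these names was considered. They held 2782324 counts in low temperature, 1434390 in low salinity and 2142836 in control. Contigs with a word searched for mobile elements, such as reverse transcriptase, ribonuclease H, endonuclease, integrase or transposon, took 4.63% of the counts in low temperature (exact binomial 95% interval 4.61% to 4.66%). They took 55.0% in low salinity (54.9% to 55.1%) and 48.4% in control (48.3% to 48.4%). A list of genes that a whole animal should express (actin, GAPDH, elongation factor 1 alpha, vitellogenin and hemocyanin, 61 contigs) summed to 46520 counts in low temperature, 233 in low salinity and 499 in control, and 45 of its contigs were at 0 in both of the last libraries. The labelled tissue, whole organism, was thus hardly represented by these markers in low salinity and control. The part of this difference in the results below was not tested.

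The 21 named contigs together had 452 counts in low temperature, 5605 in low salinity and 11846 in control. That is 0.0162% of the low-temperature library (0.0148% to 0.0178%), 0.391% of the low-salinity library (0.381% to 0.401%) and 0.553% of the control library (0.543% to 0.563%). Among all names, EFTUD1 ranked 1, estA 2, PDZPH1P 3, NID2 11 and SLC12A8 14 by summed counts in low salinity and control. The names were chosen for counts in these libraries, so nothing is read from the ranks. In whole-animal RNA, fewer cells of a type and less RNA per cell cannot be told apart.

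**Figure D1:**
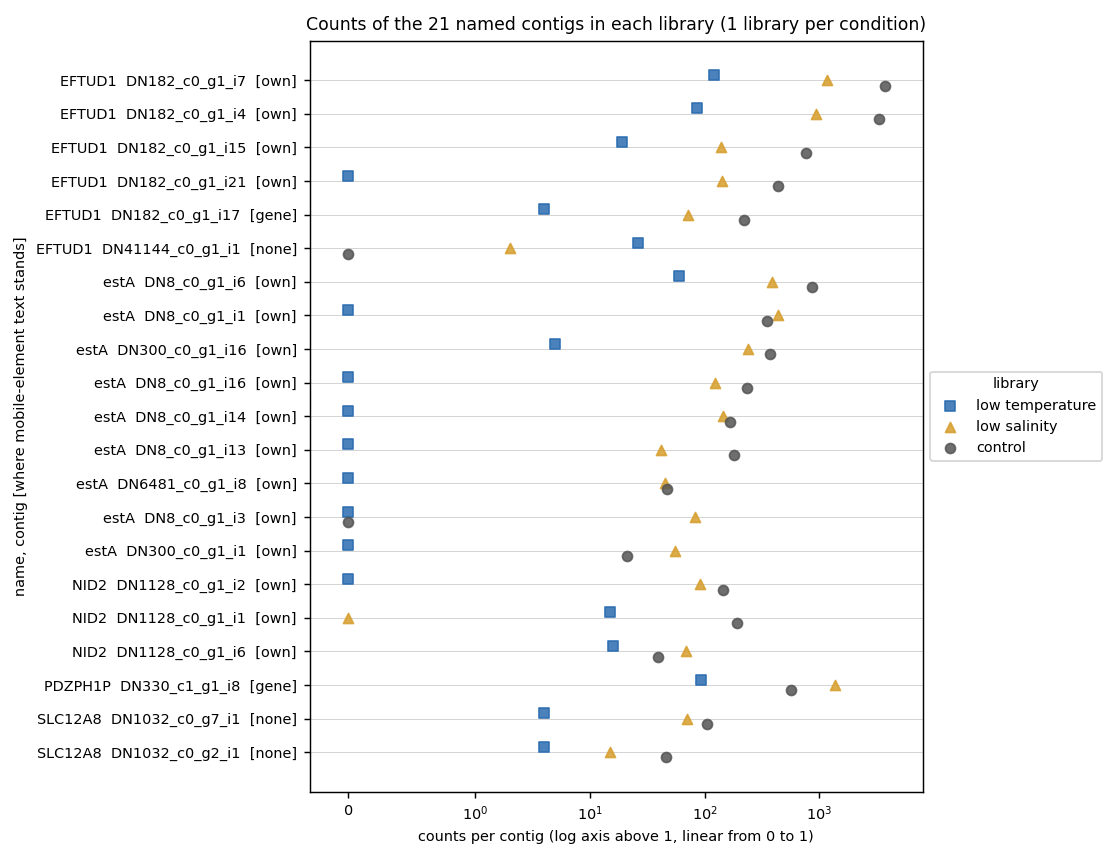
Counts of each of the 21 named contigs (horizontal axis, logarithmic above 1) in the low-temperature library (squares), the low-salinity library (triangles) and the control library (circles). Brackets say whether mobile-element text stands on the contig's own annotation rows (own), only on another contig of its assembled gene (gene), or on neither (none). EFTUD1 contig TRINITY_DN41144_c0_g1_i1 has more counts in low temperature (26) than in control (0).

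Most of the named contigs also carried text with a word searched for mobile elements. The count table lists a contig once for each annotation it received, and 16 of the 21 had another entry with such a word. On the background, such text stood on 8.36% of the 8563 tested contigs, those whose counts averaged 10 or more across the libraries. It stood on 1.32% of those with a name, and on 18.2% of the 66 other named contigs with a count in both low salinity and control. For 2 more contigs the text stood on a different contig of the same assembled gene, which made 18 of 21, against 11.5% of all tested contigs, 1.45% of those with a name and 19.7% of the same 66. The contig's own text depended on the terms searched. With strict terms only (words for transposition, reverse transcriptase, integrase, retro elements and jockey), 9 of the 21 contigs had it, among them 6 of 9 estA, 3 of 3 NID2 and 0 of 6 EFTUD1 contigs. The same terms stood on 421 of the 8563 tested contigs and on 7 of the 66 other named contigs. Over the assembled gene, strict terms gave 18 of 21, against 690 of the 8563 tested contigs and 9 of the 66 other named contigs. By name and with the wider terms, the text was on 9 of 9 estA contigs, 3 of 3 NID2 contigs and 4 of 6 EFTUD1 contigs. On those 4 EFTUD1 contigs it was RNase H alone, which does not by itself name a mobile element. The PDZPH1P contig and EFTUD1 contig TRINITY_DN182_c0_g1_i17 had mobile-element text through their gene. The SLC12A8 contigs and EFTUD1 contig TRINITY_DN41144_c0_g1_i1 had none. The label of cellular genes therefore rests, for 18 of 21 contigs, on assembled genes that also carry such text. Contigs of the same assembled gene share it, so the 21 are not independent of each other. Of the 9 assembled genes, TRINITY_DN1032_c0_g2, TRINITY_DN1032_c0_g7 and TRINITY_DN41144_c0_g1 had none, and the others had it.

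Counts were also summed by kind of annotation. The 16 contigs with mobile-element text of their own had 321 counts in low temperature, 4090 in low salinity and 10903 in control. The 2 with such text only in their gene had 97 in low temperature, 1428 in low salinity and 792 in control. The 3 with none had 34 in low temperature, 87 in low salinity and 151 in control, and 26 of their low-temperature counts were on TRINITY_DN41144_c0_g1_i1. The contigs with text of their own and those with none were thus both highest in control and lowest in low temperature by raw counts. The 9 assembled genes held 41 contigs in all. Of the 20 that did not carry a member name, 14 had mobile-element text and the other 6 had no annotation.

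**Figure D2:**
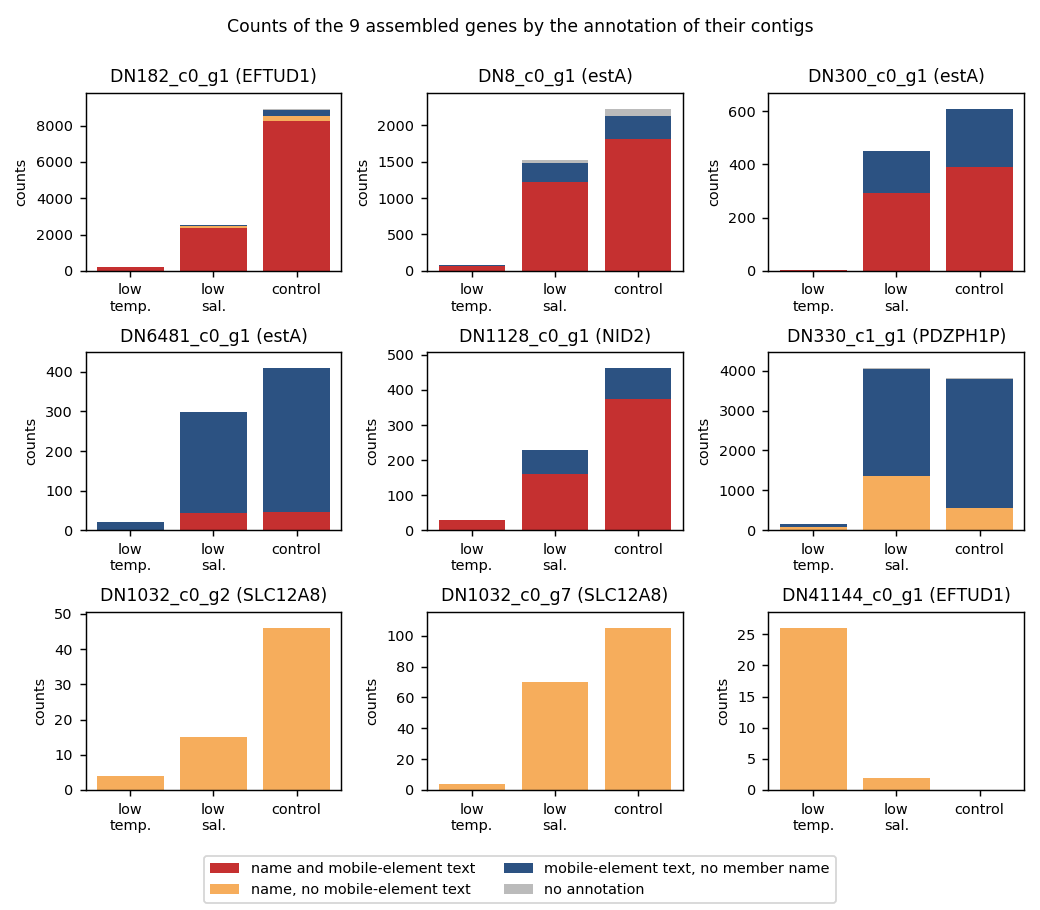
Summed counts of the 9 assembled genes in the low-temperature, low-salinity and control libraries, divided by the annotation of their contigs, with a linear vertical axis from 0 in each panel. In 5 panels nearly all counts fall on contigs with mobile-element text, PDZPH1P is a minority of its gene in low salinity and control, and the SLC12A8 genes and TRINITY_DN41144_c0_g1 have no such text.

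The EFTUD1 name covered contigs with opposite orders of libraries. Of 6 contigs, 5 belonged to TRINITY_DN182_c0_g1 and shared 1 best-matching reference protein, described as elongation factor Tu. The most abundant, TRINITY_DN182_c0_g1_i7, had 121 counts in low temperature, 1160 in low salinity and 3751 in control. TRINITY_DN182_c0_g1_i4 had 85 in low temperature, 935 in low salinity and 3337 in control, and TRINITY_DN182_c0_g1_i15 had 19 in low temperature, 138 in low salinity and 764 in control. All these contigs were lowest in low temperature and highest in control, and so were the remaining TRINITY_DN182_c0_g1_i21 (0, 143 and 432 counts in low temperature, low salinity and control) and TRINITY_DN182_c0_g1_i17 (4, 71 and 222 counts in the same order). Each of them except TRINITY_DN182_c0_g1_i17 was also described as RNase H, and 2 unnamed contigs of the gene were described as reverse transcriptases.

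The other EFTUD1 contig, TRINITY_DN41144_c0_g1_i1, was alone in its assembled gene and was described by domain II of elongation factor G. It had 26 counts in low temperature, 2 in low salinity and 0 in control, the opposite order. Against a floor of 3 counts per library it was at least 25.8-fold higher in low temperature than in control, after scaling by TMM. TMM is a method that trims extreme contigs before it sets the library factors. The bound takes the 26 counts as exact and does not cover the choice of scaling. With a mean count of 9.33 this contig was the only named contig under the filter. The sum for the name, 255 counts in low temperature (225 to 288 by the exact Poisson 95% interval), 2449 in low salinity (2353 to 2548) and 8506 in control (8326 to 8689), hides this contig.

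The estA name stood on 9 contigs of 3 assembled genes, all matched to 1 reference protein. They summed to 65 counts in low temperature (50.2 to 82.8), 1554 in low salinity (1478 to 1633) and 2244 in control (2152 to 2339), and 7 of the 9 were at 0 in low temperature. The most abundant, TRINITY_DN8_c0_g1_i6, had 60 counts in low temperature, 390 in low salinity and 871 in control, so it supplied nearly all estA counts of the cooled animals. TRINITY_DN8_c0_g1_i1 had 0 in low temperature, 435 in low salinity and 350 in control. TRINITY_DN300_c0_g1_i16 had 5 in low temperature, 238 in low salinity and 369 in control. The 6 contigs of TRINITY_DN8_c0_g1 carried reverse transcriptase or endonuclease-reverse transcriptase rows, and the 2 of TRINITY_DN300_c0_g1 and the 1 of TRINITY_DN6481_c0_g1 carried ribonuclease H rows.

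The hydrolase description itself was mostly found beside mobile-element text under the wider terms. Of all contigs, 16 had GDSL text, and 15 of them also had mobile-element text on the same contig under these terms, which include ribonuclease H. With strict terms it was 7 of 16 on the contig itself and 11 of 16 over the assembled gene. Of these 16, 9 were the estA contigs already counted. Of the other 7, 6 had such text on the contig with the wider terms. With strict terms, 1 of the 7 had it on the contig and 2 over the gene. Of all 31922 contigs, 3.20% had such text of their own with the wider terms. With strict terms, 603 had it on the contig and 976 over the gene. The 7 that were not named estA summed to 40 counts in low temperature, 559 in low salinity and 807 in control. The exception, TRINITY_DN7080_c6_g1_i1, had 4 counts in low temperature, 11 in low salinity and 8 in control.

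NID2 was found on 3 of the 4 contigs of TRINITY_DN1128_c0_g1, and all 4 were described as reverse transcriptases. TRINITY_DN1128_c0_g1_i2 had 0 counts in low temperature, 91 in low salinity and 144 in control. TRINITY_DN1128_c0_g1_i1 had 15 in low temperature, 0 in low salinity and 192 in control, and TRINITY_DN1128_c0_g1_i6 had 16 in low temperature, 69 in low salinity and 39 in control. The contigs therefore differed in which library held most of their counts and in which held none. Reads that fit several contigs of a gene are divided between them by estimation, so the sum over the gene is the firmer value: 31 counts in low temperature, 229 in low salinity and 461 in control.

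PDZPH1P was a single contig, TRINITY_DN330_c1_g1_i8, with 93 counts in low temperature (75.1 to 114), 1357 in low salinity (1286 to 1431) and 570 in control (524 to 619). Its scaled level was 74.5 CPM in low temperature, 736 CPM in low salinity and 154 CPM in control. It was 60.4% of its assembled gene in low temperature (exact binomial 95% interval 52.2% to 68.2%), 33.5% in low salinity (32.0% to 35.0%) and 15.0% in control (13.8% to 16.1%). The most abundant contig of the gene, TRINITY_DN330_c1_g1_i1, was described as a reverse transcriptase and had 61 counts in low temperature, 2104 in low salinity and 2517 in control.

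SLC12A8 had the fewest counts, with 8 in low temperature (3.45 to 15.8), 85 in low salinity (67.9 to 105) and 151 in control (128 to 177). Its contigs, TRINITY_DN1032_c0_g7_i1 and TRINITY_DN1032_c0_g2_i1, were each alone in their assembled gene and matched the same reference protein, described by potassium:chloride symporter activity. The first had 4 counts in low temperature, 70 in low salinity and 105 in control, and the second had 4 in low temperature, 15 in low salinity and 46 in control. The second also carried the name DOCK6, a guanyl-nucleotide exchange factor. No contig of the wider assembly cluster TRINITY_DN1032_c0 carried mobile-element text, and its 3 further contigs had no description.

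The comparison of low temperature with control asks what cooling changed. Ratios are of CPM, counts relative to the library total, with TMM scaling. The size rule asked for a 2-fold difference, a log2 ratio of 1 or more in size. Of the 20 named contigs tested, 18 were past the rule on the lower side in low temperature, where 43.0% of all tested contigs and 73.6% of those with mobile-element text of their own stood, and 0 were higher, against 49.6% of all tested contigs and 11.9% of those with such text. The names were chosen on this contrast, so nothing is read from these counts. Their median on the log2 scale was -3.93, against 0.83 over all tested contigs.

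By sums, EFTUD1 was 11.2-fold lower in low temperature than in control, a ratio of 0.0891 (exact conditional binomial 95% interval 0.0784 to 0.101). estA was 11.6-fold lower (ratio 0.0861, 0.0662 to 0.110), SLC12A8 6.35-fold lower (0.158, 0.0668 to 0.318) and NID2 4.07-fold lower (0.246, 0.165 to 0.355). PDZPH1P was 2.06-fold lower (0.485, 0.385 to 0.605), a log2 ratio of -1.04 that median-of-ratios scaling moved to -0.09. Its whole assembled gene was 8.33-fold lower. The intervals do not cover the choice of scaling for any of the names. For EFTUD1 the log2 ratio was -3.49 with TMM and -2.53 with median-of-ratios scaling. It was -5.44 with total counts and -5.95 with upper-quartile scaling. The contig TRINITY_DN8_c0_g1_i1 was at least 39.2-fold lower and TRINITY_DN182_c0_g1_i21 at least 48.4-fold lower, against a floor of 3 counts per library. Both bounds take the control count as exact and hold for TMM scaling only.

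Among the tested contigs, 2 were not on the lower side. NID2 contig TRINITY_DN1128_c0_g1_i6 had a log2 ratio of 0.28, which turned to -1.62 with total counts and -2.12 with upper-quartile scaling and reached 1.23 with median-of-ratios scaling. estA contig TRINITY_DN8_c0_g1_i3 was at 0 in low temperature and in control and had 83 counts in low salinity. Scaling moved every log2 ratio of this comparison by the same amount up to the prior count: -1.95 with total counts, 0.96 with median-of-ratios and -2.47 with upper-quartile scaling.

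**Figure D3:**
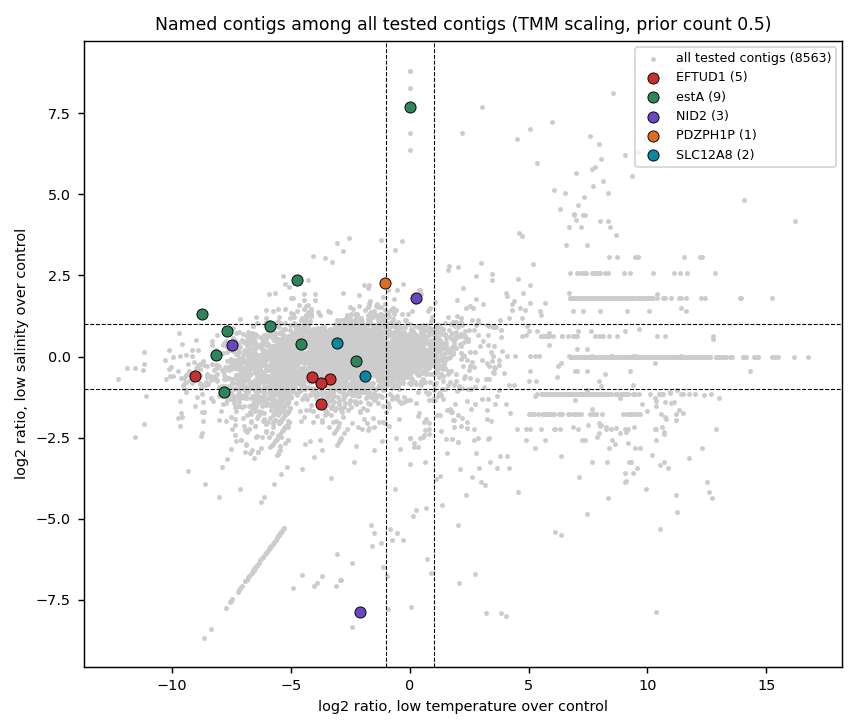
Log2 ratios of low temperature over control (horizontal axis) and of low salinity over control (vertical axis) for the 8563 tested contigs (grey) and the 20 tested named contigs (coloured by name), with dashed lines at the size rule of 1. Both axes use the same control library. The named contigs lie on the left, with 2 near 0 on the horizontal axis, and spread over both signs on the vertical axis. Grey points in straight lines have counts near 0 in low salinity and control.

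The comparison of low salinity with control asks what dilution of the water changed, and here the names did not move together. Of the 20 tested contigs, 5 were past the size rule on the higher side in low salinity and 3 on the lower side, against 5.62% and 13.3% of all tested contigs. Among contigs with mobile-element text of their own, 9.22% were higher and 14.0% lower. The median of the 20 named contigs on the log2 scale was 0.20, against 0.00 over all tested contigs. Of the 2273 tested contigs with a name, 1926 were at 0 in both libraries and could not pass the rule. The named contigs were chosen for counts there, and TRINITY_DN8_c0_g1_i3, among the 5, passed the filter through low salinity alone. Nothing is therefore read from these shares or medians. With total counts in place of TMM, 4 were higher and 8 lower.

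EFTUD1 was 1.72-fold lower in low salinity than in control by its sum (ratio 0.580, 0.554 to 0.606). Each of its 5 tested contigs had a log2 ratio below 0, between -1.46 and -0.58, under TMM. PDZPH1P was 4.79-fold higher (4.34 to 5.30), but its assembled gene was 2.14-fold higher (2.05 to 2.24), and the reverse transcriptase contig TRINITY_DN330_c1_g1_i1 of that gene had a log2 ratio of 0.75. The estA sum was 1.39-fold higher (1.31 to 1.49), with a log2 ratio of 0.48 that became 0.05 with total counts. Its contigs with a count in control ranged from a log2 ratio of -1.10 for TRINITY_DN8_c0_g1_i13, with 42 counts in low salinity and 182 in control, to 2.35 for TRINITY_DN300_c0_g1_i1, with 55 in low salinity and 21 in control. The remaining contig, TRINITY_DN8_c0_g1_i3, was at least 55.7-fold higher against the floor in control.

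For NID2 the direction depended on the contig. TRINITY_DN1128_c0_g1_i1 was at least 31.8-fold lower in low salinity than in control, while TRINITY_DN1128_c0_g1_i6 was 3.56-fold higher (2.37 to 5.42). The sum of the 3 contigs had a ratio of 0.859 (0.709 to 1.04), and the sum over the assembled gene had a ratio of 1.00 (0.850 to 1.17). SLC12A8 had a ratio of 1.13 (0.858 to 1.49) whose log2 value of 0.18 became -0.25 with total counts. For both names the interval from counting error spans 1.

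Set directly against low temperature, low salinity was higher for each name by sum. The ratio was 16.2 for estA (12.6 to 21.1), 9.88 for PDZPH1P (8.00 to 12.3), 7.20 for SLC12A8 (3.49 to 17.2), 6.50 for EFTUD1 (5.71 to 7.43) and 3.50 for NID2 (2.37 to 5.31). The intervals do not cover the choice of scaling. It moved each log2 ratio by 1.52 with total counts, -0.99 with median-of-ratios and 2.68 with upper-quartile scaling. For NID2 the log2 ratio was 1.81 with TMM, 0.82 with median-of-ratios and 4.48 with upper-quartile scaling.

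The authors' gene-level table keeps 1 contig for each assembled gene, and this changes what the 5 names stand for. Of the 9 assembled genes, 4 were represented there under the member's name, 3 by a named contig shown under another name or none, and 2 by a contig without the member annotation. EFTUD1 appears there only through TRINITY_DN41144_c0_g1_i1, with a log2 fold change of 9.48 for low temperature against control in the authors' deposited table. The larger gene TRINITY_DN182_c0_g1 stands in the authors' deposited table as RNase H, with a log2 fold change of -2.76 for the same comparison. In the summed counts of the deposited contigs, the name EFTUD1 had a log2 ratio of -3.49 with TMM scaling. The authors' scaling is another one: TRINITY_DN182_c0_g1_i15, the contig that stands for the larger gene, had -3.74 with TMM.

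For TRINITY_DN1128_c0_g1, shown as a reverse transcriptase, the authors' deposited table gives a log2 fold change of -9.82 for low salinity against control. It rests on TRINITY_DN1128_c0_g1_i1, with 0 counts in low salinity and 192 in control, whereas the 4 contigs of that gene summed to 229 in low salinity and 461 in control. For TRINITY_DN8_c0_g1, shown as estA, the authors' deposited table gives 1.28 for low salinity against control and -10.65 for low temperature against control. These rest on TRINITY_DN8_c0_g1_i1, with 0 counts in low temperature, 435 in low salinity and 350 in control. The 9 contigs of that gene summed to 77 in low temperature, 1522 in low salinity and 2224 in control. With TMM scaling the log2 ratios of these sums were 0.46 and -3.28 for the same comparisons. Of SLC12A8, only TRINITY_DN1032_c0_g7 keeps its name, with 0.41 and -2.14 for the same comparisons in the authors' deposited table, and TRINITY_DN1032_c0_g2 stands as DOCK6.

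Genes of related function without mobile-element text, taken by lists of names and descriptions, had nearly all their summed counts in the low-temperature library. So did the whole-animal list above, apart from its actin gene TRINITY_DN765_c0_g1. For EFTUD1 the list held ribosome maturation factors and elongation GTPases. Its 17 other contigs summed to 4475 counts in low temperature and to 0 in low salinity and 0 in control. Among them the elongation factor EEF2 (TRINITY_DN96_c0_g1_i1) had 907 counts in low temperature. EIF6 (TRINITY_DN53942_c0_g1_i1), the factor that EFTUD1 helps to release, had 93, and SBDS (TRINITY_DN43441_c1_g1_i1), its partner in that step, had 8. Each of these contigs was at 0 in low salinity and in control, as was every other contig of the list not named EFTUD1.

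The other lists were also highest in low temperature. For SLC12A8, 6 other cotransporter contigs summed to 398 counts in low temperature, 0 in low salinity and 0 in control, led by SLC12A1 (TRINITY_DN1927_c0_g1_i6) with 237. For NID2, 19 other contigs of the basement membrane list summed to 999 in low temperature, 0 in low salinity and 4 in control. A type IV collagen, let-2 (TRINITY_DN481_c0_g1_i5), had 292, and NID1 (TRINITY_DN53715_c0_g1_i1), the other nidogen of vertebrates, had 26 in low temperature and 0 in low salinity and control. That list also took lama and COL4A3BP by their names, which are not basement membrane proteins.

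For PDZPH1P, 10 other contigs with PDZ or pleckstrin homology text summed to 442 in low temperature, 0 in low salinity and 1 in control. For estA, 38 other esterase and lipase contigs whose gene had no mobile-element text summed to 2358 in low temperature, 11 in low salinity and 10 in control. They were led by a lipase annotated LPL and PNLIP (TRINITY_DN1037_c0_g1_i16) with 473 counts in low temperature and 0 in low salinity and control. The list search also took proteins that are neither esterase nor lipase, such as contigs described by resistance to inhibitors of cholinesterase and the phospholipase activator PLAA. The 5 names were chosen for counts in low salinity and control, which most names lack, so nothing is read from their difference to these lists. EFTUD1 contig TRINITY_DN41144_c0_g1_i1 was highest in low temperature, as its list was.

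**Figure D4:**
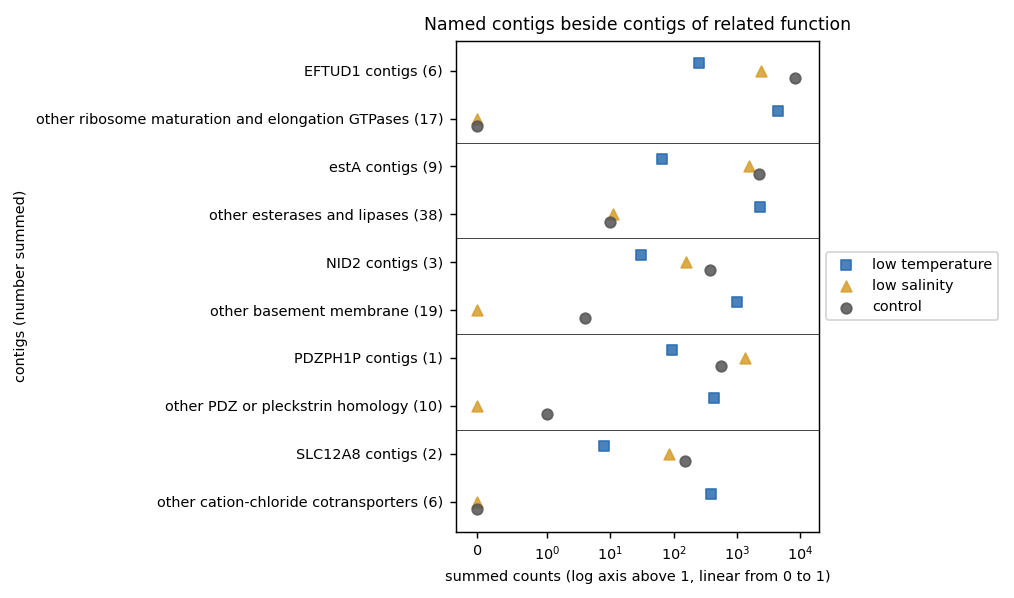
Summed counts (horizontal axis, logarithmic above 1) of the contigs with each name and of the other contigs in the related list without mobile-element text, in the low-temperature (squares), low-salinity (triangles) and control (circles) libraries. For each name the squares lie left of the circles, and for each related list they lie right of them.

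The names most like these by their distribution over the 3 libraries were looked for among the 1157 names with at least 50 counts. Likeness was the sum of the absolute differences between the shares of scaled CPM in the 3 libraries, in percentage points, so it rests on 3 values that share their libraries. EFTUD1 was nearest to the histone names HIST3H3 (10.7 points), HTB1 (11.3) and HIST1H3D (11.7), none of whose contigs carried mobile-element text. The 5 HIST1H3D contigs also carry the name HIST3H3. NID2 was nearest to GIN1 (5.48), whose 5 contigs all carried such text, most as gypsy retrotransposons, and then to DOCK6 (13.1), which is the SLC12A8 contig TRINITY_DN1032_c0_g2_i1, and HIST1H3D (13.1). SLC12A8 was nearest to POL3 (10.7), estA (13.5) and ZNF24 (13.8), and estA to ZNF24 (12.3), SLC12A8 (13.5) and POL3 (15.5). The ZNF24 contig carried mobile-element text and the POL3 contig, described as a DNA polymerase, did not. PDZPH1P had no near name: estA was 48.8 points away, GTF2IRD2 51.2 and SLC12A8 55.4.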

How the data were processed

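The authors deposited counts per assembled contig, which are whole numbers in the file, with 33093 rows for 31922 distinct contigs, since a contig is listed once per annotated protein. Each contig was used once. The tools named per the submitters' processing notes are Salmon 1.10.2, fastp 0.23.2 and FastQC 0.11.9. Salmon gives estimates that can have decimals, so the authors are taken to have rounded them. For the assembler and the annotation tool, the sources used here give no name. A further deposited table gives, for 1 contig of each assembled gene, a normalized signal that equals counts times 1 factor per library. Undoing that scaling gave whole reads for 100% of values within 0.01. For 7 of the 9 genes described here that count had been multiplied by how often the contig is listed. The log2 fold changes in the authors' comparison tables have the column names of DESeq2 results, per the file headers, with no model named.

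CPM used TMM factors from edgeR 4.0.16 (R 4.3.3) of 0.449 for low temperature, 1.29 for low salinity and 1.73 for control, with a prior count of 0.5. Contigs with a mean count of at least 10 were tested against the size rule. No sum used a prior count. Sums, intervals and text searches were computed in Python 3.11.15 with scipy 1.17.1. A fold against a library at 0 used a floor of 3 counts per library. Such a bound takes the count of the other library as exact and holds for TMM scaling only. Intervals and floors cover counting error only, since amplified reads are not independent molecules. The log2 ratio code was tested on simulated data in which few contigs changed, as many up as down. That run does not check the scaling for libraries that differ as much as these. Alternatives were total-count, median-of-ratios and upper-quartile scaling, 2 other filters, a prior count of 2, sums per assembled gene and other search terms.

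Mobile-element text was searched in names and descriptions. The contigs given with full counts were, per name, the 3 with the most counts and those opposed to the name's sum. Others were named after their values were seen. The names, lists and tests were chosen with earlier results of these data known.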

Additional observations from a re-analysis of the deposited data

How the results depend on the processing

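No paired analysis was possible because each condition has 1 library, and for the same reason no replicate could be left out. The search with Pfam domain names was not run, since no table used here has a Pfam column. Of 102 recomputed values, 24 of 31 counts of contigs stayed within 1.5 times, and the others were these. Low temperature against control had 1 named contig higher, in place of 0, with median-of-ratios scaling (TRINITY_DN1128_c0_g1_i6) and with no mean-count filter (TRINITY_DN41144_c0_g1_i1), and 8 of 8 assembled genes lower with sums per gene. Low salinity against control had 2 contigs higher with a mean count of at least 50 and 1 gene higher with sums per gene, in place of 5, and 8 contigs lower with total counts and 0 genes lower with sums per gene, in place of 3. The count of 18 contigs with mobile-element text was 18 with strict terms, 16 on the contig alone and 18 over the assembly cluster, the last chosen after seeing the data. With strict terms on the contig alone it was 9, with EFTUD1 at 0 and estA at 6. Of the 71 recomputed log2 ratios of sums, 48 moved outside the 95% counting interval of the ratio and 23 did not. None against low temperature or for low temperature against control changed sign, and 2 for low salinity against control did: SLC12A8 with total counts (-0.25) and NID2 over its assembled gene (0.00). With the authors' normalized values the EFTUD1 log2 ratio of low temperature to control was -1.56, in place of -3.49. Those values use 1 contig per gene and also other scaling factors, and they sum 2 genes with opposite orders. TRINITY_DN41144_c0_g1 had a normalized value of 129 in low temperature and 0 in control. TRINITY_DN182_c0_g1 had 94.6 in low temperature and 658 in control. Ratios between libraries rest on few low-temperature counts for SLC12A8 (8) and NID2 (31).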
